A study of Mus musculus with 24 samples.

Results

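The 16Gso mutation is a reciprocal translocation between mouse chromosomes 5 and 8, and the 10 genes described here lie within 2 Mb of its breakpoints without being *Galnt17*, *Auts2* or *Sox1*, the genes on which the study centred. They are *Caln1* and *Tyw1* on chromosome 5, and *Arhgef7*, *Atp11a*, *Mcf2l*, *Ankrd10*, *Tubgcp3*, *Cars2*, *Ing1* and *Rab20* on chromosome 8. They were taken by name from the 25793 gene symbols of the raw count tables, and all 10 were found there. The question was whether expression of genes farther out from the breakpoints also differed between mice with the translocation and wild type (WT) mice.

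RNA from the cerebellum (CB) and hippocampus (HC) of 16GsoT/T mice, which carry the translocation on both homologs, and of WT mice was sequenced at postnatal day 14 (P14) and day 35 (P35), with 3 mice in each of 8 groups and 24 libraries in all. No transgene, Cre driver or drug was used in any group, and the study's text says that expression was measured in males. The background field of the labels reads C57BL/6, whereas the titles of most WT samples and the study's methods name the hybrid of C57BL/6 and C3H/He (B6C3). The 16GsoT/T mice were bred from homozygous parents and were not littermates of the WT mice, so the translocation and other differences between the lines cannot be told apart.

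Reciprocal exchange joins each chromosome end to new neighbours and leaves genes outside the breakpoints whole. A gene that keeps its exons can still lose or gain distant enhancers when its surroundings change, which is called a position effect, and the reach of such effects differs from locus to locus. Most of the 10 genes are used in many tissues. *Caln1* encodes calneuron 1, a neuronal calcium-binding protein of the EF-hand family. *Tyw1* encodes an enzyme of wybutosine synthesis, a modification of phenylalanine tRNA. *Arhgef7* (β-PIX) and *Mcf2l* (DBS) encode guanine nucleotide exchange factors for small GTPases, and *Atp11a* encodes a P4-ATPase that flips phospholipids across the plasma membrane. *Tubgcp3* encodes a core subunit of the γ-tubulin ring complex, which nucleates microtubules. *Cars2* encodes the mitochondrial cysteinyl-tRNA synthetase, *Ing1* a histone-binding subunit of a Sin3 deacetylase complex, *Rab20* a small GTPase of endosomes, and *Ankrd10* a protein with ankyrin repeats.

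The reference sequence at both breakpoints is shown because the distance of every gene is measured from it. Each window holds 50 bases on either side of the mapped break on the plus strand of NCBIM37, and the capital marks the base at which distances start. The chromosome 5 window, chr5:131854948-131855048, lies between *Galnt17* and *Auts2*. The chromosome 8 window, chr8:12325199-12325299, lies between *A230072I06Rik* and *Gm5607* in the annotation used here.
chromosome 5: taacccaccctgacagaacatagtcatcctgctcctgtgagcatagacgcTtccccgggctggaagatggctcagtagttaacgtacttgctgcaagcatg
chromosome 8: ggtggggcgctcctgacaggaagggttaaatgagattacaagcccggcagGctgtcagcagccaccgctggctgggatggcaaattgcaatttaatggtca
The windows are sequence of the reference strain, not of the junctions in the mutant. The share of G and C was 52.5% in the chromosome 5 window and 55.4% in the chromosome 8 window.

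Positions are those of GENCODE vM1 on NCBIM37, and distances run from the break to the nearest end of the gene. On chromosome 5 both genes lie before the break on the plus strand, *Caln1* (chr5:130845346-131316515) at 538.5 kb and *Tyw1* (chr5:130731489-130817433) at 1037.6 kb. They stay on the derivative chromosome 5 together with *Galnt17*, which is 71.0 kb from the break. On chromosome 8, 5 of the 8 genes lie before the break, and these stay on the derivative chromosome 8, to which *Auts2* is joined. In order of distance they are *Arhgef7* (chr8:11728105-11835219, plus strand, 490.0 kb), *Ankrd10* (chr8:11611583-11635754, minus strand, 689.5 kb), *Ing1* (chr8:11556066-11563250, plus strand, 762.0 kb), *Cars2* (chr8:11514021-11550771, minus strand, 774.5 kb) and *Rab20* (chr8:11453392-11478638, minus strand, 846.6 kb). The other 3 lie after the break and move to the derivative chromosome 5. These are *Tubgcp3* (chr8:12614277-12672248, minus strand, 289.0 kb), *Atp11a* (chr8:12757014-12868728, plus strand, 431.8 kb) and *Mcf2l* (chr8:12873806-13020905, plus strand, 548.6 kb). No breakpoint falls inside any of the 10 genes. Short noncoding or antisense genes overlap *Caln1*, *Atp11a*, *Mcf2l*, *Tubgcp3* and *Rab20*, the longest stretch being 16613 bases of *Mcf2l* opposite *Gm15351*, and whether the authors counted by strand is not given in the sources used here.

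Reads on genes numbered 22893603 to 40564789 per library in P14 CB, 10572358 to 13245150 in P14 HC, 5140843 to 7974640 in P35 CB and 2563968 to 4127478 in P35 HC. The tissue labels held, since summed cerebellar markers reached at least 7620 CPM, the read count scaled to library size, in every CB library and at most 453 CPM in HC. In P35 CB the share of reads on genes was 37.6 to 37.7% in WT and 42.3 to 42.4% in 16GsoT/T, and 8 of 8 endothelial and mural markers were lower in 16GsoT/T, with sums of 133 to 144 CPM against 263 to 266 CPM. Choroid plexus markers were higher in 16GsoT/T for all 5 tested genes in P35 HC, 4 of them called, with sums of 347 to 1770 CPM against 80.3 to 90.7 CPM. In P14 HC the genotypes were sequenced on different lanes, and in P35 HC 2 of 3 WT libraries came from another library batch than the rest. The labels do not say that the 3 samples of a group were collected on separate days or from separate litters, so p-values measure only the spread between these samples. In tissue RNA, fewer cells of a type and less RNA per cell cannot be told apart.

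In WT tissue, levels of the 10 genes per length (RPKM, reads scaled to exon length and library size) spanned a wide range. *Caln1* was highest in P35 CB at 40.9 ± 0.38 RPKM (SD, n = 3), followed there by *Arhgef7* at 23.6 ± 0.335 and *Mcf2l* at 17.3 ± 0.299, and these steps were larger than the spread between libraries. *Ankrd10* (11.3 ± 0.865 RPKM), *Ing1* (11.1 ± 0.493 RPKM) and *Atp11a* (10.1 ± 0.801 RPKM) came next, and neighbours in this order overlapped. *Tubgcp3* (5.65 ± 0.266 RPKM), *Cars2* (4.31 ± 0.676 RPKM) and *Tyw1* (2.86 ± 0.225 RPKM) were low, and *Rab20* was near the limit of detection at 0.249 ± 0.138 RPKM. In WT HC the leading genes lay closer together. At P35 in HC the order was *Caln1*, *Ankrd10*, *Mcf2l*, *Arhgef7* and *Ing1*, from 14.2 ± 3.49 down to 9.88 ± 1.89 RPKM, and each of these overlapped with the next. In P14 CB *Arhgef7* (29 ± 1.13 RPKM) and *Caln1* (28.7 ± 1.81 RPKM) led and overlapped with each other.

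**Figure D1:**
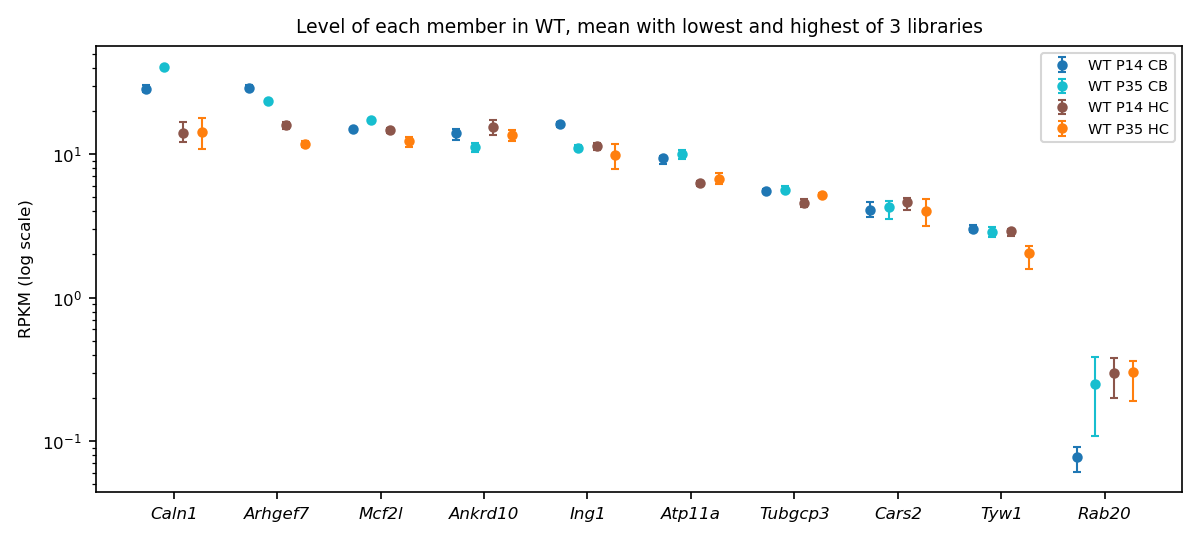
Level of each of the 10 genes in the 4 WT groups, in RPKM on a log scale; points are means of 3 libraries and bars run from the lowest to the highest library. *Caln1* and *Arhgef7* stand higher in CB (blue and cyan) than in HC (brown and orange), and *Rab20* lies below 1 RPKM in each WT group.

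The regional difference in WT was tested within each age, although CB and HC were sequenced in separate runs and region and run cannot be told apart. At P14, 5 of the 9 genes tested differed between CB and HC, where 77.2% of all genes tested did. At P35 it was again 5 of 9, against 56.0% of all genes. *Caln1* was higher in CB by 1.04 on the log2 scale at P14 (SE 0.113, adjusted p = 1.22e-05) and by 1.45 at P35 (SE 0.136, adjusted p = 1.1e-06). *Arhgef7* was higher in CB by 0.86 and 0.95 at the 2 ages and *Atp11a* by 0.58 and 0.52. *Ing1* (0.51) and *Tubgcp3* (0.27, adjusted p = 0.0061) were higher in CB at P14, and *Mcf2l* (0.41, adjusted p = 7.92e-04) at P35. *Ankrd10* alone was lower in CB than in HC, at P35 (log2 difference −0.34, SE 0.107, adjusted p = 0.0167), and that call was lost when WT library 3 of P35 HC or WT library 1 of P35 CB was left out. *Tyw1* had a P35 log2 difference of 0.41 with an adjusted p of 0.0505.

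Against this baseline, 16GsoT/T and WT were compared within each region and age with edgeR's quasi-likelihood test, with Benjamini-Hochberg adjustment over the whole set of tested genes, and a gene was called at an adjusted p of at most 0.05. *Rab20* had too few reads for the test in every comparison, which leaves 9 genes tested in each. None of the 9 was called in P14 CB, where 0.506% of all genes were. None was called in P14 HC (0.814% of all genes) or in P35 HC (0.135%). DESeq2 and the exact test of edgeR also called none of the 9 in these 3 comparisons. At an unadjusted p under 0.05 there were 0, 2 and 0 genes, the 2 being *Caln1* and *Ankrd10* in P14 HC. In P35 CB, 5 of the 9 were called, which is 55.6%, where 35.3% of all 14004 genes tested were called. *Arhgef7* and *Caln1* were higher in 16GsoT/T, where 17.4% of all genes were called higher, and *Ankrd10*, *Mcf2l* and *Atp11a* were lower, where 18% were. With 9 genes, a share of 55.6% differs from the background by about 2 genes, and only *Ankrd10* changed by at least 1.5-fold.

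**Figure D2:**
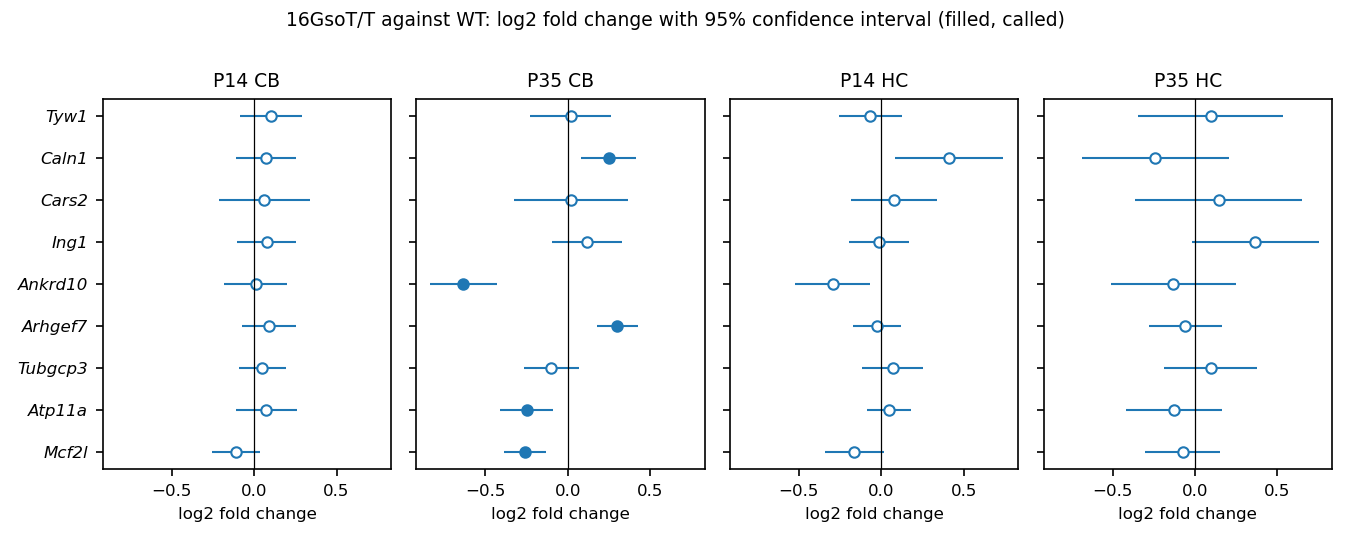
Log2 fold change of 16GsoT/T against WT for the 9 genes tested in each region and age, with 95% confidence intervals from the edgeR fit and filled points for genes called. Filled points occur in P35 CB only, and the one farthest from 0 is *Ankrd10* at −0.63.

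The intervals show how large a change could have gone unseen. In P14 CB, the most deeply sequenced comparison, all 9 intervals lay between −0.26 and 0.34 on the log2 scale, so each excludes a 1.5-fold change. There 16GsoT/T library 1 stood apart from its replicates (chi-square per degree of freedom of the read counts 44.7 and 55.3, against 14.4 between the others). Without it the log2 fold changes of *Caln1* and *Atp11a* were −0.00667 and −0.00107. In P14 HC 8 of 9 intervals exclude a 1.5-fold change, the exception being *Caln1* (0.08 to 0.74). In P35 HC, with the fewest reads, 6 of 9 do, and the widest reach was from −0.68 for *Caln1* to 0.75 for *Ing1*.

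*Ankrd10* had the largest log2 fold change of the 9 genes tested, in P35 CB. Its level there was 28.2, 31.1 and 28.8 CPM in the 3 16GsoT/T libraries and 41.5, 47.9 and 47.5 CPM in WT. Every 16GsoT/T library was below every WT library by more than 10 CPM. The means were 29.4 ± 1.54 and 45.6 ± 3.59 CPM, a log2 fold change of −0.63 (SE 0.0936, adjusted p = 2.9e-04), and 12.5% of all genes tested had a larger absolute change. In P14 CB the same gene stood at 52.0, 54.7 and 60.0 CPM in 16GsoT/T and at 57.7, 49.2 and 58.9 CPM in WT, and the groups overlapped throughout (log2 fold change 0.01, SE 0.0855, adjusted p = 0.989). In P14 HC it was at 46.8, 47.7 and 54.4 CPM against 54.0, 60.6 and 68.4 CPM, a log2 fold change of −0.30 (SE 0.0994, unadjusted p = 0.0161 in edgeR, adjusted p = 0.18), and 1 library of 16GsoT/T reached just above the lowest WT library. In P35 HC 16GsoT/T library 3 was low at 35.2 CPM while the other two, at 60.7 and 52.5 CPM, lay within or above the WT range of 49.7 to 59.6 CPM (log2 fold change −0.13, adjusted p = 0.907).

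Whether the genotype difference of *Ankrd10* changed with age was tested directly. In the fit of all 12 CB libraries, its log2 fold change at P35 was lower than at P14 by 0.65 (log2 difference −0.65, SE 0.131, adjusted p = 0.00304), and it was the only 1 of the 9 genes called, where 18.6% of all genes were. It stayed called when any single library was left out, with values from −0.71 to −0.58. The difference between HC and CB at P35 was 0.50 (SE 0.209, adjusted p = 0.136) and was not called. For *Atp11a* the difference between the ages in CB was −0.33 (SE 0.113, adjusted p = 0.0535), and for *Arhgef7* it was 0.20 (SE 0.0887, adjusted p = 0.124). None of the 9 was called for a genotype difference between ages in HC (0.00666% of all genes; 1 of the 9 at an unadjusted p under 0.05, *Caln1* at −0.65, adjusted p = 0.407) or between regions at P14 (0% of all genes; 1 of the 9 at an unadjusted p under 0.05, *Ankrd10*, adjusted p = 0.532), and DESeq2 called none there either. Between regions at P35, where 9.61% of all genes were called, none of the 9 passed and 3 had an unadjusted p under 0.05. The smallest adjusted p was that of *Arhgef7* (log2 difference −0.36, SE 0.113, adjusted p = 0.0524), which DESeq2 called.

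*Arhgef7*, the nearest of the 10 genes before the chromosome 8 break, had the highest CPM of the 10 in every CB group. In P35 CB it was at 385, 375 and 403 CPM in 16GsoT/T and at 317, 315 and 313 CPM in WT. The WT libraries lay within 4 CPM of each other and the groups were clearly apart, with means of 388 ± 13.7 and 315 ± 1.89 CPM (log2 fold change 0.30, SE 0.0568, adjusted p = 0.00154). In P14 CB its libraries ran from 385 to 424 CPM in 16GsoT/T and from 365 to 391 CPM in WT, and the log2 fold change of 0.09 was not called (adjusted p = 0.807). In HC the log2 fold change was −0.03 at P14 and −0.06 at P35, with overlapping groups at both ages. In 16GsoT/T CB the P35 level of 29.5 ± 1.07 RPKM overlapped with the P14 level of 31.4 ± 1.44 RPKM, while in WT CB the P35 level of 23.6 ± 0.335 RPKM lay below the P14 level of 29 ± 1.13 RPKM. The ages were sequenced in different runs, and the change with age within a genotype was not tested.

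*Ing1* and *Cars2*, also before the chromosome 8 break, showed no called genotype difference in any comparison. *Ing1* had its largest log2 fold change in P35 HC, 0.37 (SE 0.18, adjusted p = 0.601), from 30.3, 39.6 and 43.6 CPM in 16GsoT/T and 33.8, 29.9 and 23.8 CPM in WT, where the highest WT library exceeded the lowest 16GsoT/T library. In the other comparisons it lay between −0.02 and 0.12. *Cars2* was between 8.13 and 13.6 CPM in every library of every group, and its log2 fold changes ran from 0.02 in P35 CB to 0.14 in P35 HC, where the value was 0.53 with library batch as a covariate. *Rab20* had 0 to 13 reads in any library. Its counts in 16GsoT/T and WT were 13, 2 and 8 against 4, 3 and 3 in P14 CB, 3, 0 and 1 against 1, 3 and 3 in P35 CB, 7, 8 and 6 against 3, 5 and 6 in P14 HC, and 5, 2 and 4 against 2, 2 and 1 in P35 HC. In P35 HC, scaled to library size, these were 1.2, 0.777 and 1.11 CPM against 0.508, 0.529 and 0.28 CPM, from at most 5 reads per library. The filter left *Rab20* out of the main tests, and the alternative run with no filter did not call it for genotype.

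The 3 genes beyond the chromosome 8 break, which move to the derivative chromosome 5 that carries *Galnt17*, all had negative log2 fold changes in P35 CB. In that comparison 7056 of all 14004 genes tested had negative values, and called genes farther out on that side had both signs. *Mcf2l* was at 191, 179 and 193 CPM in 16GsoT/T and 220, 224 and 231 CPM in WT, so the groups did not overlap (188 ± 7.92 against 225 ± 5.52 CPM, log2 fold change −0.26, SE 0.0592, adjusted p = 0.00488). *Atp11a* was at 94.4, 101 and 94.6 CPM against 104, 118 and 122 CPM, with only a narrow gap between the highest 16GsoT/T and the lowest WT library (log2 fold change −0.25, SE 0.0741, adjusted p = 0.02). *Tubgcp3*, the nearest of the 10 genes to a break, was at 46.9, 44.5 and 47.1 CPM against 47.7, 51.6 and 48.5 CPM. Its groups did not overlap, as for 47.3% of all genes in this comparison, and its log2 fold change of −0.10 was not called (SE 0.078, adjusted p = 0.356, interval −0.27 to 0.07). At P14 in CB, *Mcf2l* had the largest absolute log2 fold change of the 9 genes, −0.11, from 180, 176 and 169 CPM against 195, 184 and 187 CPM. These groups did not overlap either, which held for 13.6% of all genes, and the adjusted p was 0.691. *Mcf2l* had log2 fold changes of −0.16 in P14 HC (adjusted p = 0.319) and −0.07 in P35 HC (adjusted p = 0.911). *Atp11a* in the remaining 3 comparisons lay between −0.12 and 0.07, and *Tubgcp3* between 0.05 and 0.10, none of them called.

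On chromosome 5, *Caln1* was at 195, 179 and 156 CPM in 16GsoT/T and at 147, 147 and 152 CPM in WT in P35 CB. The WT libraries were tight, the 16GsoT/T libraries were spread, and the lowest of them stood just above WT (177 ± 19.9 against 148.5 ± 2.72 CPM, log2 fold change 0.25, SE 0.0771, adjusted p = 0.0246). In P14 CB the values of 119, 105 and 97.8 CPM overlapped with 96.0, 108 and 101 CPM in WT (log2 fold change 0.07, adjusted p = 0.869). In P14 HC *Caln1* was at 64.6, 77.4 and 57.7 CPM in 16GsoT/T and 46.0, 60.7 and 43.6 CPM in WT, a log2 fold change of 0.41 that did not pass (SE 0.144, unadjusted p = 0.0201 in edgeR, adjusted p = 0.196). In those libraries oligodendrocyte markers summed to 5080 to 8280 CPM in 16GsoT/T and 3070 to 5220 CPM in WT, 6 of 6 being higher in 16GsoT/T and none called, and striatal markers ranged from 65.3 to 488 CPM in WT and from 72.2 to 90.4 CPM in 16GsoT/T. Their part in the values of *Caln1* and *Ankrd10* was not tested. In P35 HC *Caln1* was at 32.0, 53.3 and 46.1 CPM against 37.9, 64.5 and 50.9 CPM (log2 fold change −0.24, adjusted p = 0.822), and with library batch as a covariate the value was 0.19. *Tyw1*, the gene farthest from a break, stayed between 11.9 and 25.3 CPM, and its log2 fold changes ran from −0.07 to 0.10 with overlapping groups in each comparison.

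**Figure D3:**
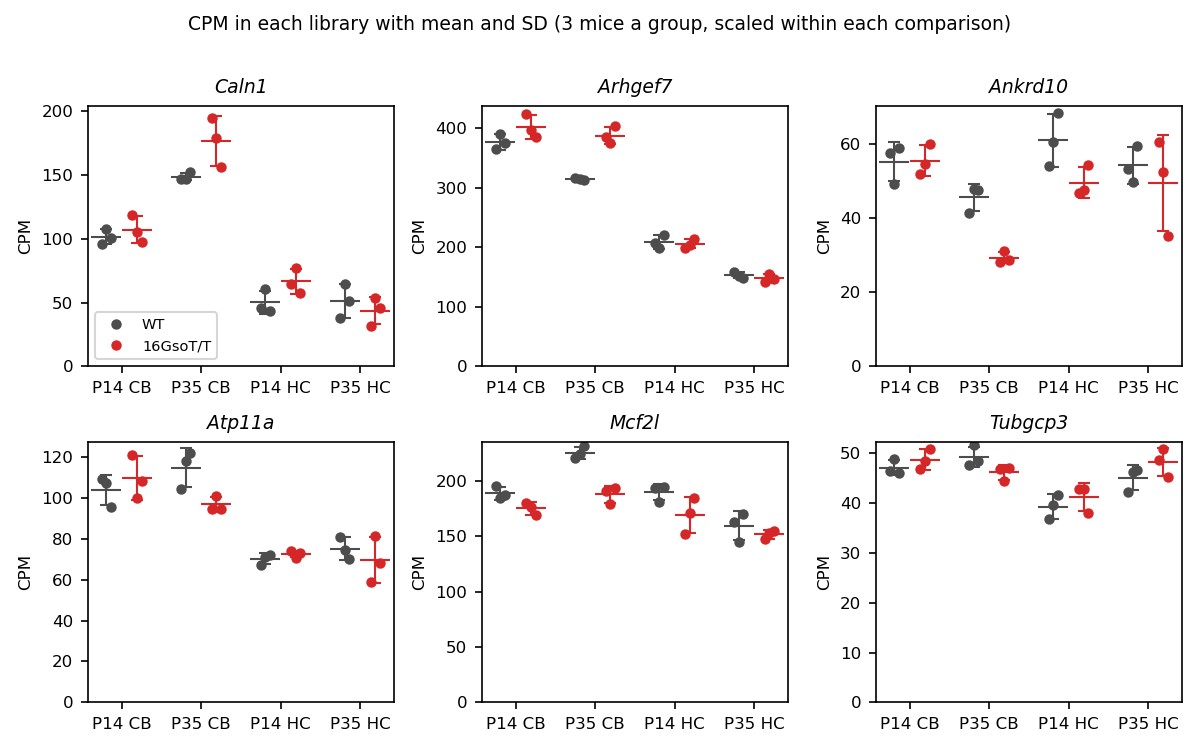
CPM of 6 of the genes in each library, scaled within each comparison, with WT in grey, 16GsoT/T in red, and bars for the mean and SD of 3 mice. In P35 CB the groups are apart for all 6 genes shown, as for 47.3% of all genes tested. The other genes tested, *Tyw1*, *Cars2* and *Ing1*, overlap there and are not shown. *Arhgef7* and *Caln1* are higher and the other 4 shown are lower in 16GsoT/T in P35 CB, although *Tubgcp3* was not called. In the other comparisons the groups of the 6 genes overlap except for *Mcf2l* in P14 CB.

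The calls of P35 CB did not all hold equally firmly. *Ankrd10*, *Arhgef7* and *Mcf2l* stayed called in every alternative run. *Caln1* was lost when 16GsoT/T library 1 or any single WT library was left out (log2 fold change from 0.18 to 0.34 over the 6 leave-outs), and *Atp11a* was lost without 16GsoT/T library 3, WT library 2 or WT library 3 (−0.31 to −0.20). Without WT library 2, or without WT library 3, 3 of the 9 genes were called. The endothelial and mural markers and the share of reads on genes given above also separated the genotypes in P35 CB. So did red blood cell markers, with sums of 172 to 280 CPM in 16GsoT/T and 79.4 to 115 CPM in WT and 2 of 3 tested genes called higher. Choroid plexus markers were lower for 6 of 6, with 2 called, and their sums overlapped (123 to 363 CPM in 16GsoT/T and 15.7 to 2110 CPM in WT). The part of these differences in these 5 changes was not tested.

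To describe the surroundings of the 10 genes, every annotated gene within 2 Mb of a break was counted. The annotation holds 100 such genes, of which 72 are in the count tables. In P14 CB, 59 passed the filter and 1 was called, *Galnt17* (listed as *Wbscr17*; log2 fold change −1.05, adjusted p = 5.63e-04). In P14 HC, 2 of 57 were called, *Galnt17* (−0.46, adjusted p = 0.0163) and *Auts2* (−0.51, adjusted p = 0.0421). In P35 HC, 0 of 54 were called with edgeR's quasi-likelihood test, with 3 at an unadjusted p under 0.05, whereas DESeq2 and the exact test each called 1, *Galnt17*. Of the genes within 2 Mb other than the 10 and *Galnt17*, *Auts2* and *Sox1*, none was called by any of the 3 tools in P14 CB (48 tested, 5 at an unadjusted p under 0.05), P14 HC (46 tested, 5) or P35 HC (43 tested, 2). *Sox1*, which the study places near the chromosome 8 break, has no position under that symbol in this annotation and is in none of these counts. In edgeR its log2 fold change was 0.71 in P35 HC (SE 0.216, unadjusted p = 0.00553, adjusted p = 0.326). It was 0.38 in P14 HC (unadjusted p = 0.0158, adjusted p = 0.179), 0.04 in P14 CB and 0.02 in P35 CB.

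In P35 CB, 18 of 54 genes within 2 Mb were called, which is 33.3% against 35.3% of all genes tested, 11 of them higher and 7 lower. The share did not follow distance. It was 38.1% of 21 genes within 1 Mb, 30.3% of 33 genes from 1 to 2 Mb, 37.3% of 59 genes from 2 to 5 Mb, 34.5% of 168 genes from 5 to 10 Mb, 35.1% farther out on chromosomes 5 and 8, and 35.4% on the other chromosomes. Without the 9 genes, *Galnt17* and *Auts2*, 11 of the 43 neighbours left within 2 Mb were called, which is 25.6%. The median absolute log2 fold change was 0.249 for the 9 genes and 0.125 for these 43 neighbours. It was 0.162 for all genes within 2 Mb and 0.238 for all genes tested. The 9 genes were chosen with earlier results of these data known, so this contrast cannot show that they stand apart. Of the 9 genes, the 4 before the chromosome 8 break included 1 called higher (*Arhgef7*) and 1 called lower (*Ankrd10*), while the 3 after it all had negative values, 2 of them called. Of the 7 called genes within 2 Mb on chromosome 5, 6 were higher, and of the 11 on chromosome 8, 5 were higher. Among neighbours outside the set, the largest called changes in P35 CB were those of *Irs2*, an adaptor of insulin signalling (0.80, adjusted p = 2.94e-05), *Col4a1* and *Col4a2*, the chains of basement membrane collagen IV (−0.71 and −0.51), *Zfp828* (0.63) and *Mmp17* (0.42, groups overlapping).

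**Figure D4:**
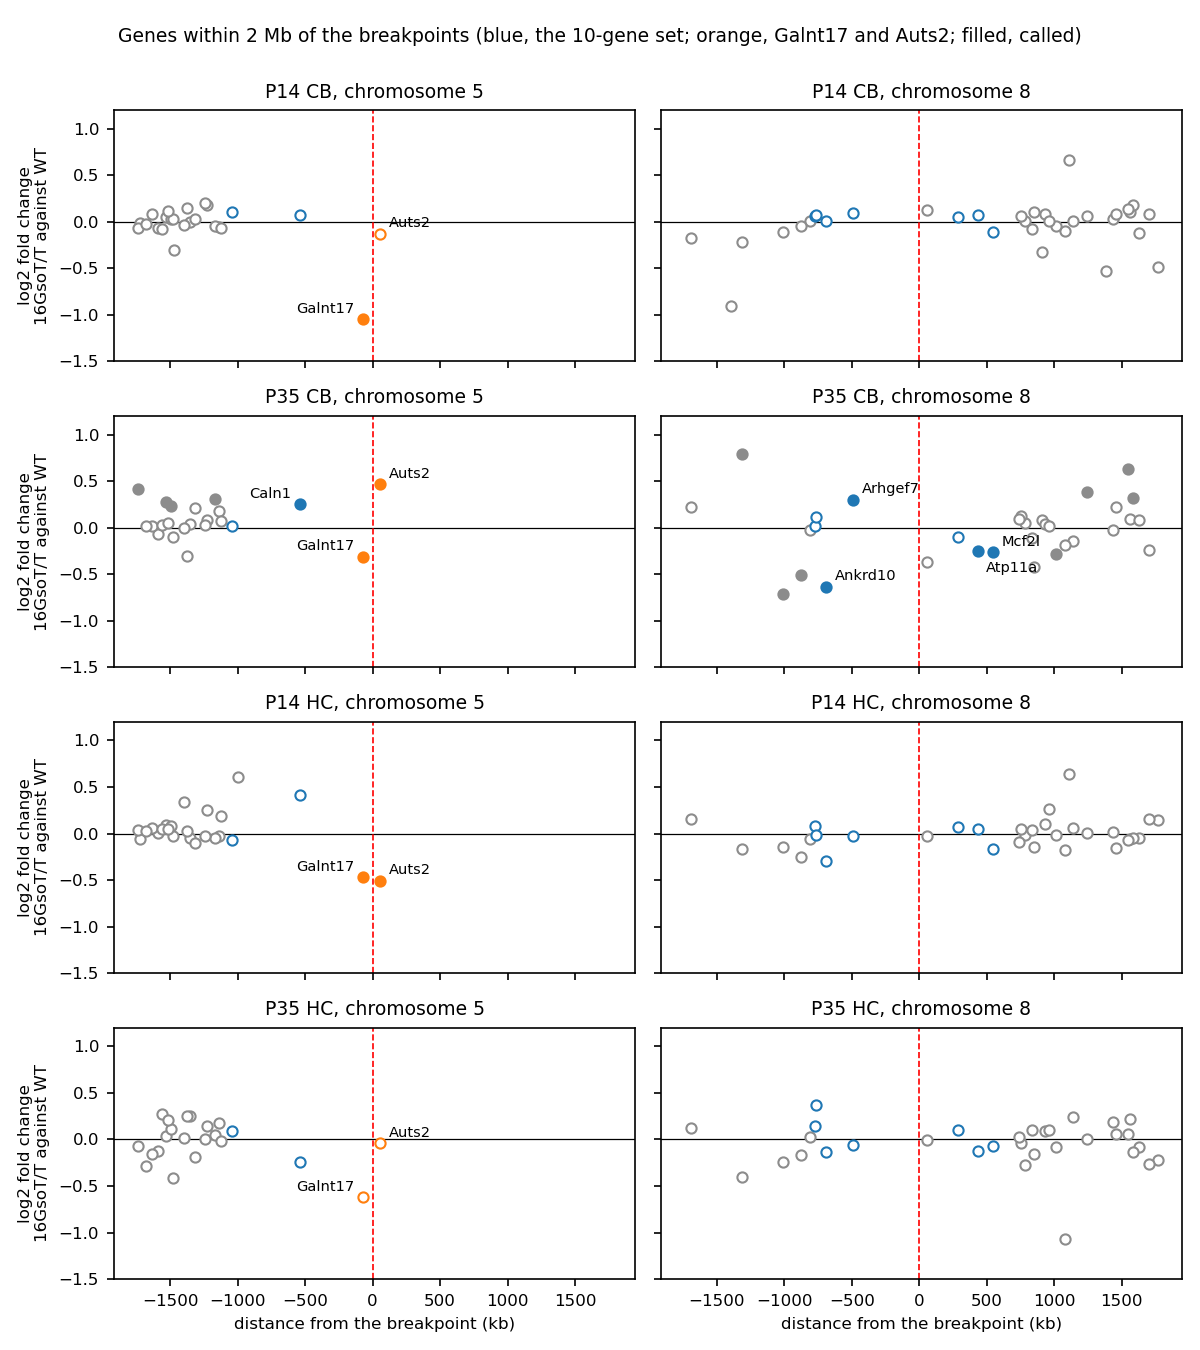
Log2 fold change of 16GsoT/T against WT for every tested gene within 2 Mb of the breaks, by distance in kb from the break (dashed line) to the nearest end of the gene, with the 10-gene set in blue, *Galnt17* and *Auts2* in orange, other genes in grey and called genes filled. At P14 the filled points are *Galnt17* and *Auts2*. In P35 CB filled points above 0 reach out to 1740.9 kb and those below 0 to 1013.5 kb.

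Partners and relatives of the 10 genes were read from 8 lists with 66 genes. In P35 CB, 20 of 62 tested partners were called, 11 higher and 9 lower, which is 32.3% against the 35.3% of all genes. In P14 CB, P14 HC and P35 HC edgeR called 0 of 63, 61 and 61, with 3, 12 and 4 at an unadjusted p under 0.05, DESeq2 called 1, 2 and 0, and the exact test called 1, 2 and 1. Of 10 PIX, GIT, PAK and Dbl genes, listed beside *Arhgef7* (0.30) and *Mcf2l* (−0.26), 5 were called higher in P35 CB. Over all genes tested, 17.4% were called higher. None of the 10 was called lower, and their median log2 fold change was 0.19. Among the 5 were *Pak2*, a kinase that binds PIX (0.53, adjusted p = 3.1e-04), *Git2*, a PIX-binding scaffold (0.32), and *Rac1*, a GTPase that PIX activates (0.22). Beside *Atp11a*, itself at −0.25, the flippase gene *Atp11b* was lower (−1.38, SE 0.0706, adjusted p = 9.2e-08), *Tmem30a*, which encodes a CDC50 subunit of such flippases, fell by 0.46 on the log2 scale, and *Atp8a2* rose by 0.57. In the remaining lists, calls in P35 CB were of both signs. *Cabp7* (−0.59) and *Cabp1* (−0.29), relatives of *Caln1*, were called lower, 2 of 3 tested. In the γ-tubulin ring complex list, 2 of 7 were called, *Tubg1* (0.38) and *Nedd1* (−0.93). Of 17 aminoacyl-tRNA synthetase genes 4 were called, 3 of them lower and 1 higher, *Lars2* (1.43). *Ing2* (0.48) and *Sin3a* (0.36) were 2 of 9 called beside *Ing1*, and *Rab5c* (0.19) was 1 of 7 Rab genes. Of 4 wybutosine genes beside *Tyw1*, 0 were called by edgeR's quasi-likelihood test (1 at an unadjusted p under 0.05, 0 by DESeq2 and 1 by the exact test).

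Genes whose log2 CPM ran most nearly alongside that of the 5 genes called in P35 CB were looked up over the 24 libraries among 12657 genes. The libraries share region, age and sequencing run, so these correlations are descriptions. For *Caln1* they were *Msn* (Pearson r = 0.965) and *Ppargc1b* (0.96), for *Arhgef7* *Pcdhgc3* (0.987) and *Akap12* (0.985), and for *Atp11a* *Lrch3* (0.953) and *Tnrc6a* (0.948). For *Mcf2l* and *Ankrd10* the nearest were less alike, *LOC100504135* (0.903) and *Irf3* (0.897) for *Mcf2l*, and *Ttc13* (0.911) and *Memo1* (0.893) for *Ankrd10*.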

How the data were processed

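RNA from CB and HC was sequenced on Illumina HiSeq instruments; the study's methods name a KAPA stranded mRNA kit and the labels a TruSeq stranded mRNA kit. According to the submitters' processing notes, TopHat2 2.0.8, HTSeq 0.6.1 and build NCBIM37 were used, and the authors deposited raw read counts per gene, without normalization, in 1 table for each age. The gene annotation and the strand option are not given in the sources used here. The summary lines of HTSeq were left out of library sizes and tests. Samples were grouped by their labels, with 3 libraries in each of 8 groups.

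Counts of the 6 libraries of a region and age were filtered with filterByExpr (minimum count 10, minimum total 15), scaled by TMM and tested with glmQLFTest of edgeR 4.0.16 in R 4.3.3, with Benjamini-Hochberg adjustment over all genes tested. Interactions used 12 libraries and 4 group means. RPKM values used TMM over the 24 libraries and the union of exons of each gene. Positions of 21635 symbols came from NCBIM37 with GENCODE vM1. The genes and lists were chosen with earlier results of these data known. The named genes are the 10, *Galnt17*, *Auts2* and *Sox1*, the 5 called neighbours with the largest change per comparison, at most 3 called genes per partner list, and the 2 most alike genes for each called member.

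Alternatives were DESeq2 1.42.0, the exact test, DESeq2 size factors, no filter, at least 10 counts in every library, 1 fit per age, leaving out each library, and library batch in P35 HC (effect sizes only). The test was tried on simulated data. Depth limits *Rab20* and P35 HC most, and replicate libraries differed by more than sampling noise. A result for 1 gene of the partner lists is not reported here.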

Additional observations from a re-analysis of the deposited data

Results flagged for a closer look

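Of the 10 genes together with *Galnt17*, *Auts2* and *Sox1*, 3 had a genotype difference in CB that changed between P14 and P35. The change itself was tested, in edgeR's quasi-likelihood fit of 12 libraries. Other genes near the breakpoints were not looked up in this test. For *Ankrd10* the log2 fold change was 0.651 lower at P35 than at P14 (difference −0.651, adjusted p = 0.00304), since it was near 0 at P14 and −0.63 at P35. For *Galnt17*, listed as *Wbscr17*, the difference was 0.733 (adjusted p = 5.59e-04), with −1.05 at P14 and −0.31 at P35. For *Auts2* it was 0.589 (adjusted p = 0.00117), with −0.13 at P14 and 0.46 at P35. The ages were sequenced in different runs, and 18.6% of all genes were called in this test.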

How the results depend on the processing

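The number of genes of the set called in P35 CB was 5, and it was 3 in 1 fit of the 12 libraries of the age, where *Caln1* (adjusted p = 0.218) and *Atp11a* (adjusted p = 0.0937) were lost; over the leave-outs it ranged from 3 to 5. In P14 CB, P14 HC and P35 HC it stayed at 0 under each alternative. Leaving out single libraries gave 12 to 19 called genes within 2 Mb in P35 CB, 0 to 2 in P14 HC and 0 to 1 in P35 HC. The P14 HC count fell from 2 to 0 without 16GsoT/T library 1 or 2 or WT library 1 or 2, and to 1 without 16GsoT/T library 3. In P35 HC 1 gene within 2 Mb was called by DESeq2, by the exact test, with no filter and in 1 fit of the 12 libraries. The genotype by age count in CB was 2 with DESeq2, which added *Arhgef7*, and 1 to 2 over the leave-outs. The genotype by region count at P35 was 1 with DESeq2 and with DESeq2 size factors, and 0 to 1 over the leave-outs. The WT regional counts were 5 to 6 at P14 and 4 to 6 at P35.

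Some log2 fold changes near 0, none of them called, changed sign when a library was left out. In P14 CB the ranges were −0.00667 to 0.139 for *Caln1*, −0.00107 to 0.137 for *Atp11a*, −0.0714 to 0.0576 for *Ankrd10* and −0.0251 to 0.17 for *Cars2*. In P35 CB they were −0.103 to 0.0915 for *Cars2* and −0.0354 to 0.0873 for *Tyw1*. In P14 HC they were −0.0661 to 0.026 for *Ing1*, −0.0654 to 0.0168 for *Arhgef7* and −0.00805 to 0.132 for *Cars2*. In P35 HC they were −0.313 to 0.0681 for *Ankrd10*, −0.0207 to 0.309 for *Cars2* and −0.0524 to 0.197 for *Tyw1*. The cause was not tested. No paired analysis was possible because the libraries of a region and age come from different animals and the labels give no shared number.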
